A study of Mus musculus with 6 samples.

Results

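Interferon-stimulated genes are the transcripts that cells raise when an interferon binds its receptor, and 46 of them lying outside the major histocompatibility complex were followed here in mouse leukemia cells treated with an inhibitor of PRMT5. The genes were chosen by symbol from the textbook antiviral programme, with earlier results of these data known. Of the 46 genes, 45 have a row in the table of 11644 genes, while Oasl1 was not analysed here. The cells of both groups, MLL-ENL/NrasG12D cells, are myeloid leukemia cells of the mouse that carry the MLL-ENL fusion and the G12D form of Nras. They were treated for 72 h with 5 µM EPZ015666, a small molecule that blocks the arginine methyltransferase PRMT5 and was added again on day 2, or with DMSO, its solvent. Each group has 3 libraries of polyadenylated RNA, which the series text calls independent without saying what was repeated, so p-values here measure the spread between these libraries, which may be technical. The labels give neither the sex, age or strain of the source animal nor the number of clones.

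In this pathway, interferon receptors activate the kinases Jak1 and Tyk2, which phosphorylate STAT factors. A complex that holds Stat2 and Irf9 binds the interferon-stimulated response element, called ISRE, in the promoters of its targets. Interferon gamma acts through another element, called GAS. The targets encode sensors of foreign nucleic acid, proteins that block virus entry, translation or release, and the factors that renew the signal. Myeloid cells hold many of these transcripts at a steady level without infection.

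The libraries held between 11335948 and 19197912 reads in genes, and each gene of the table reached at least 10 reads in its highest library. All values below are normalized counts, read counts that each library's size factor has scaled. Defining myeloid markers were present, with 11 of 11 in the table and a summed level of 28210 to 28761 in the EPZ015666 libraries and of 19352 to 20233 in the DMSO libraries. Of these 11, 6 rose and 2 fell: the integrin Itgam averaged 6314 with EPZ015666 and 1667 with DMSO, the growth factor receptor Csf1r 3912 with EPZ015666 and 1235 with DMSO, and the Fc receptor Fcgr3 1024 with EPZ015666 and 383 with DMSO. The granule enzyme Mpo averaged 342 with EPZ015666 and 847 with DMSO, and the factor Cebpa 873 with EPZ015666 and 1269 with DMSO, and both fell. For Mpo the DMSO libraries 1, 2 and 3 were at 1438, 371 and 731, and library 2 lies inside the EPZ015666 range of 292 to 408. Its log2 fold change was -1.11, and -1.59 without DMSO library 2 (adjusted p = 2.34e-05 by limma). Markers of myeloid state thus moved in the same comparison as the interferon-stimulated genes, and their part in the results was not tested.

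Of other cell types, 4 of 6 plasmacytoid dendritic cell markers had values, summing to 2973 to 3013 with EPZ015666 and to 2416 to 2813 with DMSO. Most of that sum is Tcf4, which did not pass, while Pacsin1 (181 with EPZ015666, 44.9 with DMSO) and Cd300c (105 with EPZ015666, 20.4 with DMSO) rose and Siglech (343 with EPZ015666, 544 with DMSO) fell. Of 5 megakaryocyte markers 2 had values, summing to 32.7 to 54.5 with EPZ015666 and to 9.78 to 17.7 with DMSO, and Itga2b rose (29.8 with EPZ015666, 6.79 with DMSO). Neither the 1 of 6 B cell markers nor the 3 of 7 stromal and endothelial markers with values passed, and the T cell and erythroid markers were not analysed here. The part of these cell types in the results was not tested. A rise or fall of a transcript in bulk RNA cannot be told apart from a change in the share of cells that hold it. DMSO library 2 stands apart from the other libraries in Trib3, Ddit3 and Nupr1, stress genes listed because they are high in it. They summed to 632 to 675 in the EPZ015666 libraries and to 335, 3003 and 499 in DMSO libraries 1, 2 and 3. Chosen that way, these genes only describe the library. Results that rest on DMSO library 2 are also given without it.

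With EPZ015666 the interferon-stimulated genes did not move as a block. By limma with Benjamini-Hochberg adjustment over all genes, 10 of the 45 rose, 7 fell and 28 did not pass the adjusted threshold of 0.05. The background is high in these cells: 46.5% of all genes were called, 23.6% higher and 22.9% lower, against 37.8% of the 45 genes, 22.2% higher and 15.6% lower. The share called is thus below that of all genes, and it is no sign of a response particular to these genes. Their median log2 fold change was 0.02, against 0.00 over all genes, with a range of -0.78 to 1.85. The groups' libraries did not overlap for 10 genes that were higher and 7 that were lower, or 37.8%, against 56.0% of all genes.

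The size of the change differed between the directions. Of the 10 that rose, 8 rose by at least 2-fold on the log2 scale, while none of the 7 that fell did, and the largest of these falls was that of Irf7. Over all genes, 834 of the 2753 that rose and 354 of the 2665 that fell changed by at least that much. Those are 7.16% and 3.04% of all 11644 genes. The rises were split by level: 12 of the 45 genes had a mean below 100 normalized counts, and 5 of these rose and none fell, with a median log2 fold change of 0.69. Over all genes below that mean, 26.4% rose and 12% fell, with a median of 0.21. Of those 2544 genes, 562 reached 10 reads in a library of 1 group alone, so their entry depended on that group. Ifitm3, among both the 5 and the 8 above, did so through the EPZ015666 group. Of the 33 genes at or above 100, 5 rose and 7 fell, with a median of -0.09.

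**Figure D1:**
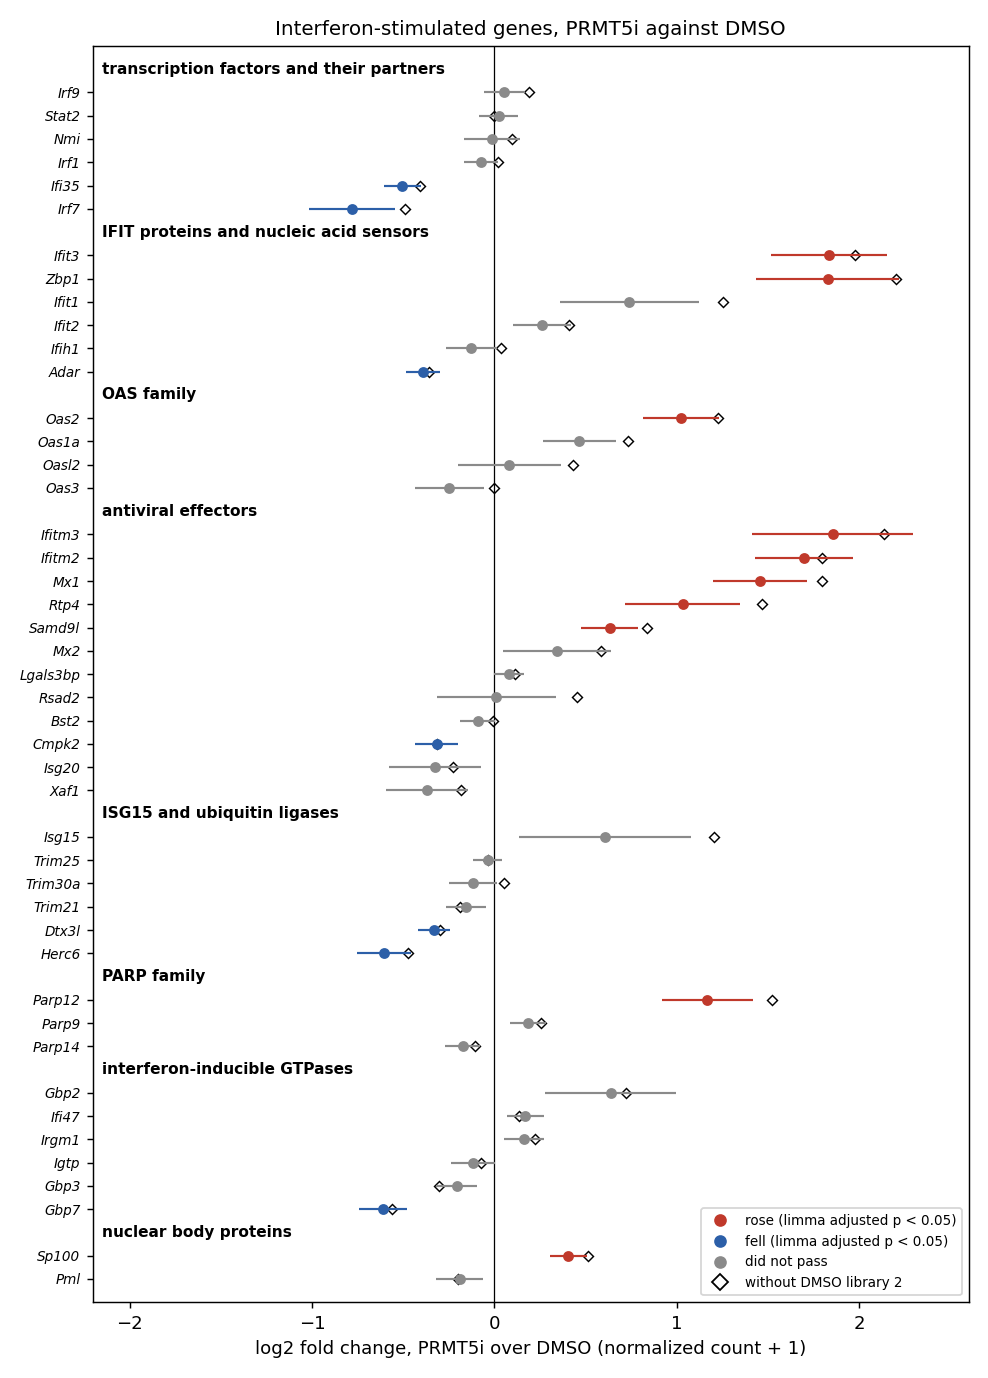
Log2 fold change of EPZ015666 (PRMT5i) over DMSO for the 45 genes, on the scale of log2(normalized count + 1), grouped by role, with circles for all 6 libraries, bars for the limma standard error and open diamonds for the fit without DMSO library 2. The values run from -0.78 for Irf7 to 1.85 for Ifitm3, 10 genes rose and 7 fell, and most diamonds lie right of their circles.

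The promoters show what the genes share in sequence. RefSeq promoter windows of build GRCm38.p6, from 250 bases before to 50 after the start, were at hand for 38 of the 45. The ISRE core was searched as GAAANNGAAA and, on the other strand, as TTTCNNTTTC, and 18 of the 38 windows, or 47.4%, hold it, against 3.99% of 27025 windows of all genes and 3.88% of the 8808 windows of genes in the table. Windows of 6 genes are shown: those of all called genes whose window holds the core, and those of Isg15 and Ifit1. All 6 were picked for holding the core, so they do not stand for the called genes without it. Every ISRE core is in capitals. Ifit3 (chr19:34583279-34583578, plus strand), Ifitm2 (chr7:140955912-140956211, minus strand) and Ifitm3 (chr7:141010695-141010994, minus strand) rose. Gbp7 (chr3:142530086-142530385, plus strand) fell. Isg15 (chr4:156200769-156201068, minus strand) and Ifit1 (chr19:34640639-34640938, plus strand) did not pass. Each is printed 5′ to 3′ on the strand of its gene.
Ifit3: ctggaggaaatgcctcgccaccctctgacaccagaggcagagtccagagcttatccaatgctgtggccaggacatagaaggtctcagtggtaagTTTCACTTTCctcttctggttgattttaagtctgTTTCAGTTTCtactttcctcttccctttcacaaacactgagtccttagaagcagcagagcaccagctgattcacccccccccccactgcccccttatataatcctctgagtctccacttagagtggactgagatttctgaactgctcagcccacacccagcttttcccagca
Ifitm2: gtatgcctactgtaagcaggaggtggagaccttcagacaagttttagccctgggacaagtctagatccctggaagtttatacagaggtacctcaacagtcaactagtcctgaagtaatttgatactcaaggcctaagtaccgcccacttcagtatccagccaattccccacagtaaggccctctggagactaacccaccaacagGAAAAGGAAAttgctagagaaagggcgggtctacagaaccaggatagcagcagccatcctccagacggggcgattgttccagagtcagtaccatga
Ifitm3: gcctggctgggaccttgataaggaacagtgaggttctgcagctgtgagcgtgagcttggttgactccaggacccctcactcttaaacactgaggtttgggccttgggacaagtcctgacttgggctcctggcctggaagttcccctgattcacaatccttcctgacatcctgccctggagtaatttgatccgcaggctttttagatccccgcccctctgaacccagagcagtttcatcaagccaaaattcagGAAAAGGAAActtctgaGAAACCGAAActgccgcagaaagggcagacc
Gbp7: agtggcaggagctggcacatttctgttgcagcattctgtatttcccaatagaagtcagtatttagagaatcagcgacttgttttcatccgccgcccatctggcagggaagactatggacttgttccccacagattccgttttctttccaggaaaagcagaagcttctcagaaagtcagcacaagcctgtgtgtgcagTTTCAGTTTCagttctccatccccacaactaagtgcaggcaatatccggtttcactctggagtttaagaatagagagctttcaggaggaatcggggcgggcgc
Isg15: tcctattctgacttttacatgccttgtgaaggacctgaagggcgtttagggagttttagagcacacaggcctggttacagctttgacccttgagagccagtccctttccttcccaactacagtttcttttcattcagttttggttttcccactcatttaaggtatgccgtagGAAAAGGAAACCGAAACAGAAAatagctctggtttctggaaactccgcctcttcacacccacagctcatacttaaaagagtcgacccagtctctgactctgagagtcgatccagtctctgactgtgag
Ifit1: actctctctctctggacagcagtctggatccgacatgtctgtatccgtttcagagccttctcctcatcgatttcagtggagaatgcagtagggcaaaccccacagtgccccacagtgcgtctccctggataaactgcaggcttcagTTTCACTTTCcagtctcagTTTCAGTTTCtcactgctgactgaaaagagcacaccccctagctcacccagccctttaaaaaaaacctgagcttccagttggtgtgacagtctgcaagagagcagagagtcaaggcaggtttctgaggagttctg

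The core begins 46 bases before the start of Ifitm2 and 53 before that of Gbp7, 2 genes that moved in opposite directions. Ifit3 has it at 156 and 122 bases before the start and Ifit1 at 104 and 85. Isg15 has 3 overlapping copies, at 78, 72 and 66 bases before the start, while the copies of Ifitm3 lie 2 and 19 bases past its start. Among the genes with a window, the core was found in 3 of 6 that rose, 1 of 7 that fell and 14 of 25 with no call. Zbp1, Oas2, Mx1 and Rtp4, which rose, and Mx2, Parp9 and Parp14, which did not pass, had no window. These counts and the medians that follow leave them out, while no gene that fell was left out. With the core the median log2 fold change was 0.02, over 18 genes, and without it -0.05, over 20 genes. The GAS core, searched as TTCNNNGAA, which reads the same on both strands and can overlap an ISRE core, was in 10 of the 38 windows, or 26.3%, against 9.55% of all windows. A match of letters does not show that a factor binds there, and these shares describe the windows only.

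Among the transcription factors and their partners none of 6 rose and 2 fell. Irf7, which amplifies the interferon response, was at 80.7, 119 and 96.9 normalized counts in EPZ015666 libraries 1, 2 and 3, against 128, 253 and 147 in DMSO libraries 1, 2 and 3. All 3 EPZ015666 libraries lie below all 3 DMSO libraries, and DMSO library 2 is the highest by far. The means were 98.8 ± 19.2 with EPZ015666 and 176 ± 67.1 with DMSO (SD, n = 3 each), a log2 fold change of -0.78 ± 0.23 (SE, adjusted p = 0.0170 by limma). Without DMSO library 2 it was -0.49 (adjusted p = 0.0440), and without EPZ015666 library 1 the call was lost at -0.64 (adjusted p = 0.0696), the highest adjusted p of the 6 fits that each left out 1 library, of which DMSO library 1 gave the lowest (0.00666). Irf7 overlaps Phrf1 in the annotation, and the strand setting of the authors' counting is not stated in the notes used here.

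Ifi35, a leucine zipper protein that binds Nmi, was at 401, 406 and 381 normalized counts with EPZ015666, against 524, 640 and 528 with DMSO. The groups are well apart, with a log2 fold change of -0.50 ± 0.10 (SE, adjusted p = 0.00197). For the subunits of the ISRE-binding complex counted here no difference passed. Irf9 averaged 868 ± 13.8 with EPZ015666 and 844 ± 147 with DMSO (SD, n = 3 each), with a log2 fold change of 0.05 ± 0.11 (SE, adjusted p = 0.716), and Stat2 had one of 0.02 ± 0.11 (SE, adjusted p = 0.869). Irf1, a factor that activates many of these promoters by itself, was at 919, 915 and 930 with EPZ015666 and at 912, 1104 and 905 with DMSO, with a log2 fold change of -0.07 ± 0.09 (SE, adjusted p = 0.543). Nmi was at 150 to 186 with EPZ015666 and at 139 to 197 with DMSO and did not pass either. Irf9 overlaps Rnf31 on the same strand and Irf1 overlaps Gm17334 on the opposite strand.

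Of the 6 IFIT proteins and sensors, 2 rose and 1 fell. Ifit3 was at 32.7, 36.4 and 29.1 normalized counts with EPZ015666, against 5.71, 10.5 and 9.82 with DMSO. Every EPZ015666 library lies well above every DMSO library, and the mean was 3.77-fold higher (log2 fold change 1.83 ± 0.32, SE, adjusted p = 0.000659). A near-identical copy, Ifit3b, lies beside it in the mouse genome, so reads may have been split between them. Zbp1, a sensor of Z-form nucleic acid that can start necroptosis, was at 24.5, 51.7 and 51.7 with EPZ015666, against 8.15, 18.6 and 7.85 with DMSO. The groups do not overlap, though EPZ015666 library 1 is close to DMSO library 2, and the log2 fold change was 1.83 ± 0.39 (SE, adjusted p = 0.00255).

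Ifit1 did not pass. It was at 38.8, 39.2 and 59.2 with EPZ015666 and at 18.8, 54.9 and 17.7 with DMSO, so that DMSO library 2 lies within the EPZ015666 range and the other DMSO libraries below it. The log2 fold change was 0.74 ± 0.38 (SE, adjusted p = 0.131), and 1.25 without DMSO library 2 (adjusted p = 0.00215), with adjusted p of 0.00215 to 0.368 over the fits that left out 1 library. Ifit2 was at 163, 206 and 166 with EPZ015666 and at 136, 182 and 131 with DMSO, with a log2 fold change of 0.26 ± 0.16 (SE, adjusted p = 0.197), and 0.41 without DMSO library 2 (adjusted p = 0.0420). Ifih1, the cytosolic sensor MDA5, was at 250 to 270 with EPZ015666 and at 254 to 359 with DMSO. Adar, which edits double-stranded RNA and keeps it from the sensors, was at 1385, 1383 and 1655 with EPZ015666, against 1782, 2017 and 1992 with DMSO, and fell by 0.39 ± 0.09 on the log2 scale (SE, adjusted p = 0.00504). It overlaps Chrnb2 in the annotation.

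In the OAS family, enzymes that double-stranded RNA activates, 1 of 4 genes rose. Oas2 was at 260, 292 and 401 normalized counts with EPZ015666, against 113, 203 and 157 with DMSO, a 2.02-fold higher mean with no overlap between the groups (log2 fold change 1.03 ± 0.21, SE, adjusted p = 0.00183). Oas1a was at 222, 277 and 291 with EPZ015666 and at 160, 274 and 154 with DMSO. Only DMSO library 2 reaches into the EPZ015666 range, and the log2 fold change of 0.47 ± 0.20 (SE, adjusted p = 0.0764) became 0.73 without that library (adjusted p = 0.000894). Its reads may be shared with Oas1g, a close copy. Oas3 was at 270 to 315 with EPZ015666 and at 260 to 497 with DMSO, and Oasl2 at 60.1 to 92.5 with EPZ015666 and at 48.9 to 110 with DMSO, with overlap in both.

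Of the 12 antiviral effectors 5 rose and 1 fell. Mx1, a GTPase that traps viral nucleocapsids, was at 208, 273 and 323 normalized counts with EPZ015666, against 67.7, 153 and 83.5 with DMSO. The lowest EPZ015666 library is above the highest DMSO library, and the mean was 2.64-fold higher (log2 fold change 1.46 ± 0.26, SE, adjusted p = 0.000776). RefSeq lists Mx1 and Mx2 as transcribed pseudogenes in the mouse reference strain, and the strain of these cells is not in the labels. Mx2 was at 40.6 to 86.1 with EPZ015666 and at 34.2 to 61.4 with DMSO and did not pass.

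Both membrane proteins that block virus entry rose from a low level. Ifitm2 was at 50.1, 53.1 and 67.8 normalized counts with EPZ015666, against 20.4, 19.4 and 11.8 with DMSO, with a mean 3.32-fold higher (log2 fold change 1.70 ± 0.27, SE, adjusted p = 0.000354). Ifitm3 was at 11.2, 18.2 and 17.2 with EPZ015666 and at 2.45, 5.65 and 2.95 with DMSO, with a log2 fold change of 1.85 ± 0.44 (SE, adjusted p = 0.00466). It rests on few reads, 40 over the EPZ015666 libraries and 13 over the DMSO libraries. It is also the single gene of the 45 that reached 10 reads in a library through the EPZ015666 group alone, so it could enter the table only by being high there, and with genes of that kind left out 9 rose and 7 fell. The pair are close paralogs, and reads may be shared between them. Ifitm2 also overlaps Gm45717 on the same strand in the annotation.

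Samd9l, an antiviral protein that also restrains blood cell growth, was at 941, 1159 and 946 with EPZ015666, against 523, 862 and 613 with DMSO, and rose by a log2 fold change of 0.63 ± 0.16 (SE, adjusted p = 0.00616) without overlap. Rtp4, a chaperone for membrane receptors, was at 98.1, 144 and 128 with EPZ015666, against 37.5, 109 and 50.1 with DMSO, and passed (log2 fold change 1.03 ± 0.32, SE, adjusted p = 0.0187) although DMSO library 2 exceeds EPZ015666 library 1. Its call was lost without EPZ015666 library 2 (adjusted p = 0.0891) or 3 (0.0566) and without DMSO library 1 (0.0684) or 3 (0.0539), while without DMSO library 2 the adjusted p was 6.02e-05. Rtp4 overlaps Masp1 in the annotation.

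Cmpk2, a mitochondrial nucleotide kinase, was at 347, 327 and 277 with EPZ015666, against 426, 395 and 362 with DMSO, and fell by 0.32 ± 0.12 on the log2 scale (SE, adjusted p = 0.0409). That is the least stable fall. It was lost without EPZ015666 library 2 (adjusted p = 0.0795) or 3 (0.134), without DMSO library 1 (0.142) or 2 (0.0629), and with DESeq2 (0.0621), though it passed in the other leave-one-out fits. Rsad2, the antiviral enzyme viperin, was at 65.4, 89.5 and 81.8 with EPZ015666 and at 45.7, 144 and 70.7 with DMSO, which puts all EPZ015666 libraries inside the DMSO range. Bst2, which tethers budding virus, had the highest level per length of the 45 genes, at 896 normalized counts per kilobase of exon with EPZ015666 and 956 with DMSO, and did not pass (adjusted p = 0.464). Lgals3bp, a secreted galectin ligand, stood at 724 to 739 with EPZ015666 and at 654 to 724 with DMSO and did not pass. Nor did Isg20, an exonuclease, at 33.6 to 59.2 with EPZ015666 and 42.4 to 59.7 with DMSO, or Xaf1, a promoter of apoptosis, at 106 to 195 with EPZ015666 and 148 to 227 with DMSO.

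**Figure D2:**
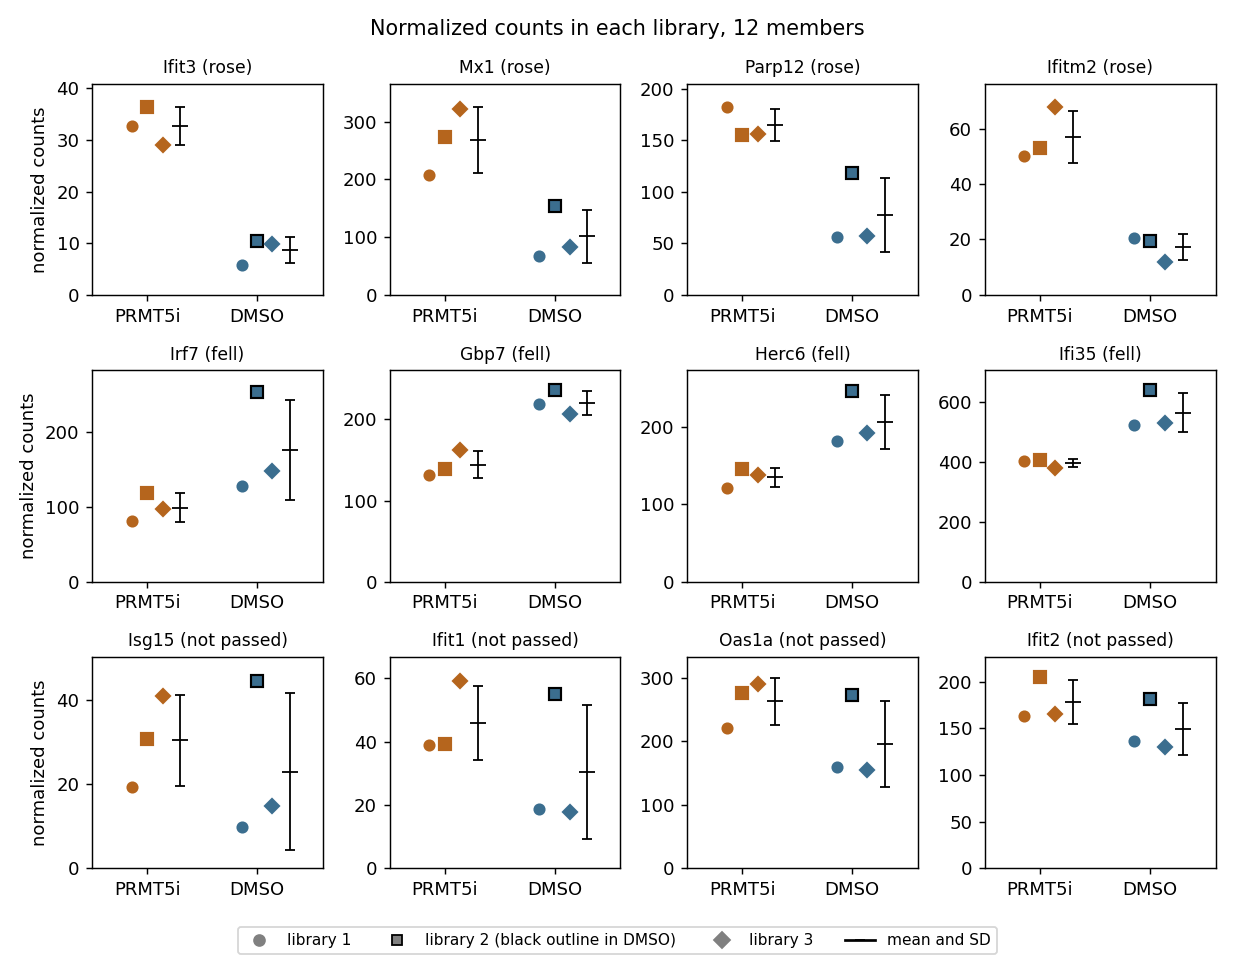
Normalized counts of 12 genes in each library, EPZ015666 (PRMT5i) left and DMSO right in each panel, with circles, squares and diamonds for libraries 1, 2 and 3 and bars for the mean and SD. In the upper row the EPZ015666 libraries lie above all DMSO libraries, in the middle row below them, and in the lower row DMSO library 2 (outlined) lies in or above the EPZ015666 range, as for Isg15 at 44.4.

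None of the 6 genes of the ISG15 system and the ubiquitin ligases rose, and 2 fell. Isg15, the ubiquitin-like protein that gave the family its name, was at 19.4, 30.8 and 40.9 normalized counts with EPZ015666 and at 9.78, 44.4 and 14.7 with DMSO. DMSO library 2 is the highest of all 6 libraries and the other DMSO libraries are the lowest, so the spread within DMSO is as wide as the whole range. The log2 fold change was 0.61 ± 0.47 (SE, adjusted p = 0.311), and 1.21 without DMSO library 2 (adjusted p = 0.0140), with adjusted p of 0.0140 to 0.784 over the fits that left out 1 library. Herc6, the mouse ligase that attaches Isg15, was at 121, 145 and 138 with EPZ015666, against 182, 246 and 191 with DMSO, and fell by 0.61 ± 0.15 on the log2 scale (SE, adjusted p = 0.00556). Modifier and ligase were thus on opposite sides of 0 in these fits, though the difference between them was not tested.

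Dtx3l, a ubiquitin ligase that pairs with Parp9, was at 1142, 1145 and 986 with EPZ015666, against 1367, 1426 and 1314 with DMSO, and fell by 0.33 ± 0.09 on the log2 scale (SE, adjusted p = 0.00858). Parp9 was at 820 to 975 with EPZ015666 and at 732 to 874 with DMSO and did not pass (adjusted p = 0.145). Dtx3l and Parp9 overlap on opposite strands, so their reads cannot be told apart without strand. Trim25, a ligase that activates the sensor RIG-I, came next to Bst2 in level per length by the mean of both groups, at 290 normalized counts per kilobase of exon with EPZ015666 and 297 with DMSO (where Ifi35 was higher, at 327), with no change that passed (adjusted p = 0.739). Trim21, a cytosolic receptor for antibody, was at 299 to 359 with EPZ015666 and at 350 to 395 with DMSO, and Trim30a, a brake on inflammatory signalling, at 769 to 835 with EPZ015666 and at 743 to 1105 with DMSO.

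In the PARP family, enzymes that attach ADP-ribose, Parp12 was the only one of 3 to rise. It was at 183, 155 and 156 normalized counts with EPZ015666, against 56.3, 119 and 56.9 with DMSO. The DMSO libraries split, with library 2 at about the middle between the others and the EPZ015666 libraries, and the log2 fold change was 1.17 ± 0.25 (SE, adjusted p = 0.00246). Parp14 was at 1213 to 1417 with EPZ015666 and at 1298 to 1600 with DMSO and did not pass.

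The interferon-inducible GTPases, which attack the vacuoles of intracellular microbes, held no rise and 1 fall among 6 genes. Gbp7 was at 132, 138 and 162 normalized counts with EPZ015666, against 219, 236 and 206 with DMSO, and fell by 0.61 ± 0.13 on the log2 scale (SE, adjusted p = 0.00241). The gap between the groups is wider than either group's range. Gbp3 was at 456, 440 and 421 with EPZ015666 and at 592, 442 and 497 with DMSO. As for Trim21 and Ifi47, DMSO library 2 is the lowest of its group. The log2 fold change of Gbp3 was -0.21 (adjusted p = 0.155), or -0.31 without that library (adjusted p = 0.0384). By the mean of both groups Gbp2 had the lowest level per length of the 45 genes, at 8.37 normalized counts per kilobase of exon with EPZ015666 and 5.35 with DMSO, where Zbp1 and Ifit3 were lower still, and it did not pass (adjusted p = 0.163). Irgm1 was at 634 to 814 with EPZ015666 and at 617 to 718 with DMSO, Igtp at 168 to 179 with EPZ015666 and 172 to 199 with DMSO, and Ifi47 at 451 to 540 with EPZ015666 and 425 to 468 with DMSO. None of these had a call, and Igtp and Ifi47 overlap other coding genes.

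Of the nuclear body proteins, Sp100, a repressor of incoming viral genomes, was at 841, 933 and 886 with EPZ015666, against 626, 774 and 615 with DMSO, and rose by a log2 fold change of 0.41 ± 0.10 (SE, adjusted p = 0.00690). Pml, which builds the bodies, was at 272, 273 and 317 with EPZ015666 and at 281, 322 and 386 with DMSO and did not pass (adjusted p = 0.253).

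Neighbouring genes often had different calls. Within 300 kb of another of the 46 genes lie 23 of them, in 9 clusters (mm10, GENCODE release M21). On chromosome 7 Ifitm2 and Ifitm3 rose while Irf7, in the same stretch, fell. On chromosome 19 Ifit3 rose while its neighbours Ifit2 and Ifit1 did not pass, and on chromosome 5 Oas2 rose while Oas3 and Oas1a did not. On chromosome 12 Cmpk2 fell while Rsad2 did not pass. The differences between neighbours were not tested.

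The DMSO libraries differed among themselves in these genes. DMSO library 2 was the highest of the DMSO libraries for 36 of the 45 genes, or 80.0%, against 34.8% of all genes, and the lowest for 3 (Gbp3, Trim21 and Ifi47), where it was so for 37.1% of all genes. It was the highest of all 6 libraries for 20 of the 45, or 44.4%, against 15.6% of all genes. The median difference of DMSO library 2 from the mean of DMSO libraries 1 and 3 was 0.32 on the log2 scale for the 45 genes, against -0.01 for all genes. The ratio was 3.62 for Isg15, 3.01 for Ifit1, 2.49 for Rtp4, 2.48 for Rsad2 and 2.32 for Zbp1. The summed level of the 45 genes was 18868 to 19711 with EPZ015666 and 18248, 21778 and 18715 in DMSO libraries 1, 2 and 3. The part of the stress genes named above in these values was not tested.

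**Figure D3:**
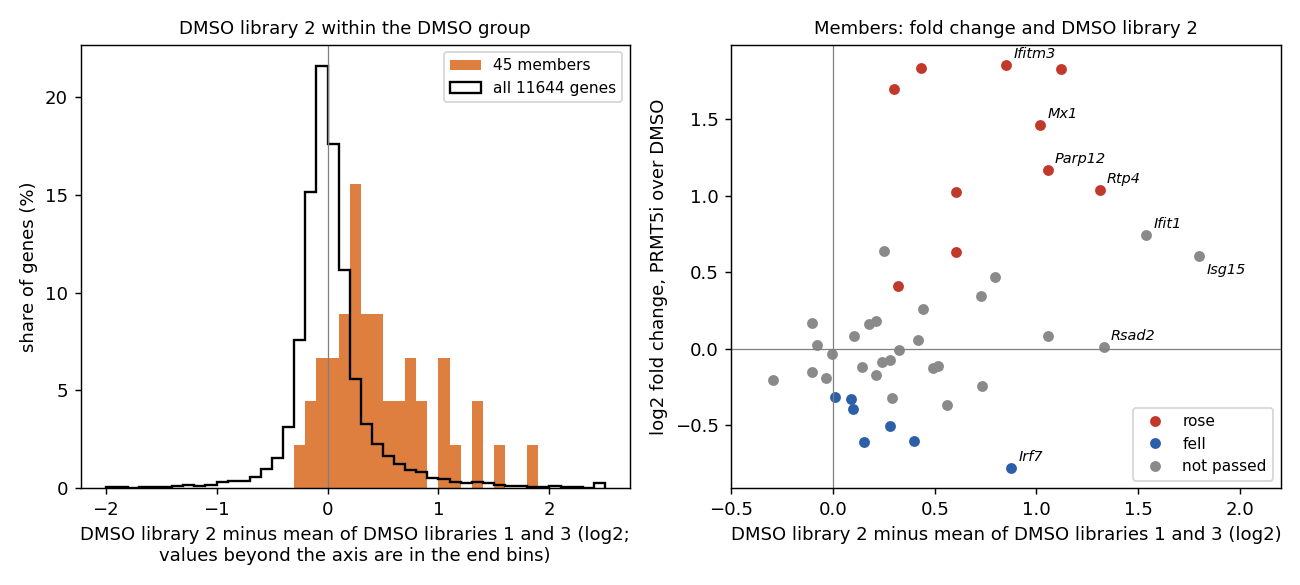
Left, share of genes (%) by the difference of DMSO library 2 from the mean of DMSO libraries 1 and 3 (log2), for the 45 interferon-stimulated genes (filled) and all 11644 genes (line). Right, log2 fold change of EPZ015666 over DMSO against that difference for the 45 genes, with DMSO library 2 entering both axes. The filled bars lie right of 0 for most genes (median 0.32), and Isg15 and Ifit1, farthest right, did not pass.

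Without DMSO library 2, 14 of the 45 genes rose and 7 fell, 31.1% and 15.6%, against 23.6% and 22.3% of all genes. The median log2 fold change was then 0.11, against 0.00 over all genes. The 4 rises gained were those of Isg15, Ifit1, Ifit2 and Oas1a, the fall of Gbp3 was gained and that of Cmpk2 lost. The 10 rises found with all libraries were still called. The difference between the counts with and without this library was not tested.

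The rest of the interferon pathway was read from 7 lists of 154 further genes, of which 111 were in the table. Of these, 31 rose and 18 fell, or 44.1%, near the 46.5% of all genes, and the median log2 fold change was 0.02. By direction 27.9% rose and 16.2% fell, against 23.6% and 22.9% of all genes, shares that stand beside each list's count below. For 4 of the 111, a library of 1 group alone reached 10 reads. Tlr8, Oas1g and Gbp4 did so through the EPZ015666 group and are among the 31. Gbp8, not called, did so through the DMSO group. The 21 interferon ligand genes were not analysed here. Among the receptors, 3 of 5 rose: Il10rb, a chain of the interferon lambda receptor, was at 1676, 1902 and 1779 with EPZ015666, against 1263, 1205 and 1061 with DMSO. Ifngr2 averaged 1094 with EPZ015666 and 721 with DMSO, and Ifnar1, a chain of the type I receptor, 2776 with EPZ015666 and 2217 with DMSO. Their partner chains did not pass. Ifnar2 averaged 2884 with EPZ015666 and 3199 with DMSO (adjusted p = 0.133 by limma). Ifngr1 averaged 2311 with EPZ015666 and 2202 with DMSO (adjusted p = 0.536 by limma).

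Of the kinases and STATs, 1 of 9 rose and 6 fell, or 11.1% and 66.7%, against 23.6% and 22.9% of all genes. These shares rest on few genes, and the difference from the receptors was not tested. Tyk2 averaged 877 with EPZ015666 and 1276 with DMSO, Jak2 940 with EPZ015666 and 1332 with DMSO, and Stat5a 657 with EPZ015666 and 1043 with DMSO, and all 3 fell. Jak1 was the gene that rose. Of 6 other interferon regulatory factors, Irf4 rose and 4 fell, among them Irf8, a factor of the monocyte and dendritic lineage, at 3222, 2924 and 2950 with EPZ015666, against 5709, 5379 and 5318 with DMSO (adjusted p = 9.18e-06).

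Of 13 brakes of interferon signalling 4 rose and 2 fell. Usp18, which removes Isg15 from proteins and blocks the type I receptor, was at 396, 481 and 429 with EPZ015666, against 139, 348 and 136 with DMSO (adjusted p = 0.00420). DMSO library 2 is again far above the other DMSO libraries but below all EPZ015666 libraries. Of 24 nucleic acid sensors and adaptors 9 rose and 3 fell. The kinase Ikbke averaged 312 with EPZ015666 and 102 with DMSO, and the endosomal RNA receptor Tlr7 655 with EPZ015666 and 295 with DMSO, and both rose. Of 54 other interferon-stimulated genes 13 rose and 3 fell, and Plscr1, a phospholipid scramblase, averaged 292 with EPZ015666 and 88.5 with DMSO. DMSO library 2 was the highest of its group for 72 of the 111 genes, or 64.9%.

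**Figure D4:**
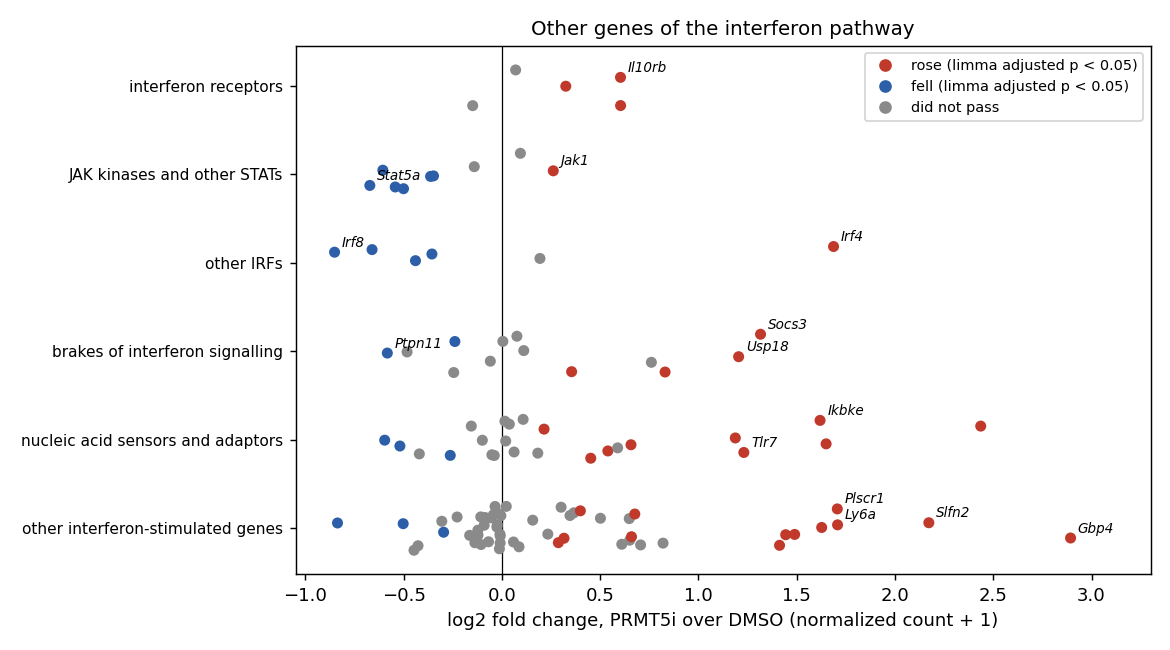
Log2 fold change of EPZ015666 (PRMT5i) over DMSO, on the scale of log2(normalized count + 1), for 111 other genes of the interferon pathway in 6 lists, with points coloured by call. Points lie on both sides of 0 in each list, 31 rose and 18 fell, and the kinase and STAT list lies mostly left of 0.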

How the data were processed

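Polyadenylated RNA of 3 EPZ015666 and 3 DMSO libraries was sequenced from a stranded kit, per the labels' protocols. Build mm10 and the tools DESeq 1.16.0, HTSeq 0.6.0, TopHat2 2.0.10 and CASAVA 1.8.2 are listed in the submitters' processing notes. Annotation, strand setting and the handling of multi-mapped reads are not stated there. The authors deposited 1 table of normalized signal, gene read counts divided by a size factor per library: in each library 100% of values are whole multiples of 1 step (tolerance 1e-06), so whole reads were recovered. Libraries of 1 group always differed by more than sampling noise (chi-square per degree of freedom 9.77 to 21.4). Depth limits the precision of low genes.

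Groups came from the titles. limma-trend (limma 3.58.1, R 4.3.3) was run on log2(normalized count + 1) over all 11644 genes, two-sided, with Benjamini-Hochberg adjustment at 0.05 and 4 residual degrees of freedom; this scale understates changes of low genes. Means carry the SD, and log2 fold changes the limma standard error. The script was tested on simulated data. Replicate numbers were not taken as pairs.

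The members, lists and tests were chosen with earlier results of these data known. Named members were Isg15, Ifit1, Irf1, Irf7, Irf9 and Stat2, the 8 largest rises and up to 8 largest falls past the threshold, and the highest and lowest per kilobase. Of each other list up to 4 called genes were named. Further genes were named after their values were seen, and a few genes of the lists enter the counts without being reported here. Alternatives were pseudocounts of 0.5 and 5, edgeR 4.0.16 and DESeq2 1.42.0 on the recovered reads, upper-quartile scaling, a minimum mean of 100, a 2-fold minimum, a replicate block and leaving out each library. A minimum of 10 reads in each group was added after the data were seen.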

Additional observations from a re-analysis of the deposited data

How the results depend on the processing

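The counts of 10 interferon-stimulated genes that rose and 7 that fell stayed within 1.5 times under other pseudocounts, edgeR (10 and 7, with 5412 genes called in all), DESeq2 (10 and 6, with 4999 genes) and upper-quartile scaling. With a minimum mean of 100 normalized counts, 5 of them and 19 other interferon pathway genes rose, since low genes were then not tested. With a 2-fold minimum none of them fell, 834 of all genes rose and 354 fell, and 16 other pathway genes rose and 0 fell. Leaving out each library in turn gave 9 to 14 that rose and 6 to 7 that fell, a median log2 fold change of -0.05 to 0.11, 2078 to 2751 of all genes that rose and 2067 to 2598 that fell, and 21 to 37 other pathway genes that rose and 13 to 17 that fell. None of these counts passed 1.5 times. Of log2 fold changes near 0, that of Stat2 ran from -0.064 (without EPZ015666 library 3) to 0.095 and was also below 0 without DMSO library 1 (-0.023) or 2 (-0.0026). That of Irf9 ran from -0.027 (without DMSO library 1) to 0.19 and was also below 0 without DMSO library 3 (-0.0039), and that of Irf1 ran from -0.12 to 0.020 (without DMSO library 2). The cause of these turns of sign was not tested. With the replicate number as a block, 11 rose and 7 fell, Oas1a being gained, with 3016 and 2916 of all genes and 35 and 21 of the other pathway genes. Every library correlated best with its own number, but the pairs' correlations were 0.165, 0.0499 and 0.205 and the labels do not say that a number marks a shared culture. Of 753 values for single genes 700 kept direction and call, 45 lost the call, 2 gained it and 6 changed sign. The highest DMSO library of Ifitm3 had 7 reads, so counting error limits its value.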

Other observations

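Families within the interferon lists were singled out after their values were seen. Of 6 genes of the Schlafen family, growth regulators and translation inhibitors of blood cells, 3 rose (Slfn2, Slfn4 and Slfn5), 1 fell (Slfn8) and 2 did not pass (Slfn3 and Slfn9). Over all genes, 23.6% rose and 22.9% fell, and counts of families picked this way only describe them. Slfn2 was at 788, 958 and 909 normalized counts in EPZ015666 libraries 1, 2 and 3, against 154, 308 and 156 in DMSO libraries 1, 2 and 3, and it rose. Slfn8 was at 247, 256 and 245 with EPZ015666, against 318, 454 and 306 with DMSO, and it fell. In both genes DMSO library 2 was the highest of its group, below the EPZ015666 libraries in Slfn2 and above them in Slfn8.

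Of 6 guanylate-binding proteins outside the 46 genes, which all averaged below 100 normalized counts, 3 rose (Gbp4, Gbp9 and Gbp11) and 3 did not pass (Gbp5, Gbp6 and Gbp8). Over all genes below that mean, 26.4% rose and 12% fell. Gbp9 was at 52.1, 43.3 and 49.5 with EPZ015666, against 9.78, 30.7 and 14.7 with DMSO. Gbp4 was at 18.4, 14 and 30.1 with EPZ015666 and at 1.63, 3.23 and 0.982 with DMSO, where it rests on 7 reads over the 3 libraries, with at most 4 in any of them. Gbp4 reached 10 reads through the EPZ015666 group alone, so it could enter the table only by being high there. Gbp8 was at 4.09, 5.59 and 5.38 with EPZ015666 and at 2.45, 30.7 and 0.982 with DMSO, where DMSO library 2 is the highest of all 6 libraries. Gbp8 had at most 5 reads in any EPZ015666 library. Of its 42 DMSO reads 38 were in DMSO library 2, so its entry into the table depended on that library.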
